A study of Bos taurus with 6 samples.

Results

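Genes of acid-base, water and ammonia handling were followed across the rumen, the liver and the forebrain of the bovine fetus. They are 3 carbonic anhydrases (CA2, CA3 and CA4), the water and glycerol channel AQP3 and the ammonium transporter RHCG. They were chosen by name, as genes that serve ion and water transport in the later rumen, and they are 5 of the 14179 gene symbols in the count table. Poly(A) RNA was sequenced from the rumen, the liver and the forebrain, with 2 libraries of each tissue, called here Rumen 1 and 2, Liver 1 and 2, and Forebrain 1 and 2. All 6 libraries were labelled wild type, male, Holstein and 90 days of gestation, with a crown-rump length of 13 to 16 cm in fetuses obtained at slaughter. The labels count 2 male fetuses, so at most 2 animals gave the 6 libraries, and no label ties a library to its fetus. The p-values therefore reflect the spread between these libraries alone, which may be technical.

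Carbonic anhydrases catalyse the reversible hydration of carbon dioxide to bicarbonate and a proton. In the rumen of adult cattle this reaction supplies the ions that the epithelium exchanges while it absorbs short-chain fatty acids and sodium, and the same epithelium carries water, ammonia and urea between blood and lumen. CA2 is the fast cytosolic form, abundant in red blood cells, kidney and brain glia of mammals. CA3 is a cytosolic form of low activity known from skeletal muscle, adipose tissue and liver of rodents, and CA4 is anchored to the outer face of the cell membrane, where it acts on extracellular bicarbonate. AQP3 lies in the basolateral membrane of stratified and kidney epithelia and passes water and glycerol. RHCG passes ammonia across epithelial membranes, and is best known from the acid-secreting intercalated cells of the kidney collecting duct in human and mouse.

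Total counts lay between 10271024 and 18528958 per library. Levels are given as CPM, the counts relative to a library size corrected by TMM scaling, and at these depths a floor of 3 counts in 1 library corresponded to between 0.193 and 0.244 CPM. CPM is not scaled to transcript length, so levels are compared between tissues and never between genes. Across genes, log2 CPM of the 2 libraries of a tissue correlated with a Pearson r of 0.980 in rumen, 0.923 in liver and 0.987 in forebrain. The liver pair stood furthest apart, with an SD of the log2 ratio between its libraries of 0.947 among well-counted genes, against 0.212 in rumen and 0.249 in forebrain. The tissue labels matched their markers. The 15 stratified squamous markers summed to 15077 and 12404 CPM in Rumen 1 and 2, against at most 227 CPM in any other library. The 13 hepatocyte markers summed to 248106 and 213346 CPM in Liver 1 and 2, against at most 137 CPM elsewhere, and the 11 forebrain markers summed to 1033 and 943 CPM in Forebrain 1 and 2, against at most 56.3 CPM elsewhere. In such bulk samples fewer cells of a type and less RNA per cell cannot be told apart.

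Of the 5 genes, AQP3 was the one whose level was highest in rumen. CA2 was highest in liver, and CA3, CA4 and RHCG were highest in forebrain. In rumen against forebrain, 1 of the 5 genes was higher (AQP3) and 4 were lower (CA2, CA3, CA4 and RHCG) at an adjusted p under 0.05, where 20.3% of all 11478 tested genes were higher and 21.5% were lower, 41.8% in all. In rumen against liver, 1 was higher (AQP3), 1 was lower (CA2) and 3 did not pass, where 21.2% of all tested genes were higher and 21.8% were lower, 43.0% in all. In liver against forebrain, 1 was higher (CA2), 3 were lower (CA3, CA4 and RHCG) and AQP3 did not pass, where 30.5% of all tested genes were higher and 27.3% were lower, 57.8% in all. These are edgeR's quasi-likelihood tests, with p-values adjusted after Benjamini and Hochberg over the 11478 genes, and the comparisons share libraries pairwise. With 5 genes chosen by name, the counts describe these genes and are no test of the set.

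**Figure D1:**
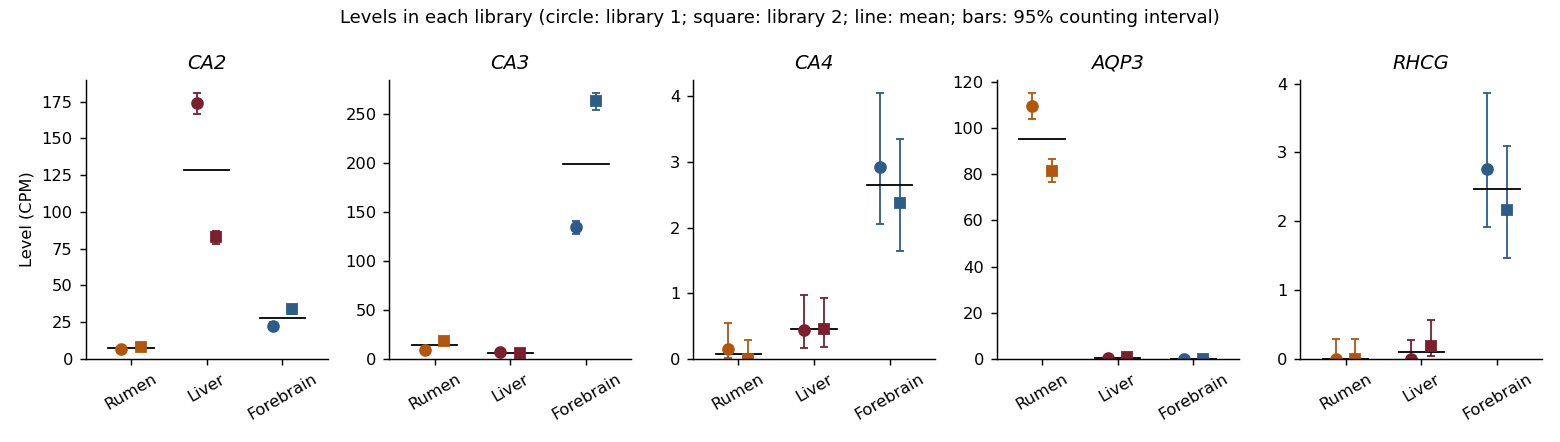
Level of each gene in CPM (vertical axis, a linear scale of its own in each panel) in rumen, liver and forebrain (horizontal axis). Circles are library 1 and squares library 2 of a tissue, the line is their mean, and the bars are the exact Poisson 95% interval, which covers counting error only. AQP3 stands at 109 and 81.5 CPM in rumen and under 1 CPM elsewhere, CA2 is highest in both liver libraries, and CA3, CA4 and RHCG are highest in both forebrain libraries.

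AQP3 was the rumen gene of the group. It reached 109 and 81.5 CPM in Rumen 1 and 2, against 0.298 and 0.642 CPM in Liver 1 and 2 and 0.0813 and 0.0722 CPM in Forebrain 1 and 2. Both rumen libraries stood far above the other 4, and the forebrain values rested on 1 count in each library. The mean in rumen was 95.4 ± 19.7 CPM, against 0.470 ± 0.244 CPM in liver (SD, n = 2 each), a log2 fold change of 7.60 ± 0.42 (SE), or 195-fold, with an adjusted p of 3.48e-05 in edgeR. Against forebrain the counts pooled over both libraries gave a ratio of rumen over forebrain of 1249.95, with a 95% counting interval from 346 to 10327, and an adjusted p of 4.85e-05 in edgeR. Liver and forebrain, the neighbours at the low end, did not differ beyond their spread (liver over forebrain 6.31, counting interval from 1.45 to 57.2, adjusted p = 0.0915 in edgeR), although every liver value lay above every forebrain value. That difference passed in DESeq2, with an adjusted p of 0.0475, and in edgeR's older quasi-likelihood fit, with 0.0238.

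Like AQP3, most stratified squamous markers were highest in rumen. The stratified squamous list held KRT5, a keratin of basal cells, at 351 and 251 CPM in Rumen 1 and 2 and at no more than 1.95 CPM in any other library, and KRT15, another basal keratin, at 7860.1 and 6270.0 CPM in Rumen 1 and 2 and at no more than 4.37 CPM elsewhere. Over all tested genes, 21.2% were higher and 21.8% lower in rumen than in liver, and 20.3% and 21.5% than in forebrain. Of the 14 tested members of the list, 12 were higher in rumen than in liver and none was lower, and 12 were higher and 2 lower in rumen than in forebrain. CSTA, a protease inhibitor, was 1 of these and had no counts in rumen, against 2.75 ± 0.904 CPM in forebrain. The other was LORICRIN of the cornified envelope, which averaged 0.195 ± 0.276 CPM in rumen, 0.225 ± 0.318 CPM in liver and 27.8 ± 3.82 CPM in forebrain (SD, n = 2 each). Rumen 1 exceeded Rumen 2 in the summed level of the list, as it did for AQP3. Most of that sum was KRT15 and KRT4, the latter at 4612 and 3788 CPM in Rumen 1 and 2. Not every marker followed it, as TP63, DSC3, DSG3 and PKP1 were higher in Rumen 2. TP63 stood at 1.30 and 5.15 CPM and PKP1 at 72.1 and 82.2 CPM in Rumen 1 and 2. KRT14 was low in both, at 0.689 and 0.624 CPM. The part of this epithelium in the AQP3 result was not tested. The 5 tested genes whose levels across the 6 libraries ran nearest to those of AQP3, by Euclidean distance in centred log2(CPM + 0.5), were HOXC4 (distance 0.60), EVPL (0.71), SPINK5 (0.77), OVOL2 (0.87) and PHOX2A (0.88). EVPL, the cornified-envelope protein envoplakin, stood at 163 ± 3.31 CPM in rumen, 1.27 ± 0.843 CPM in liver and 0.334 ± 0.242 CPM in forebrain. SPINK5, a protease inhibitor of stratified epithelia, stood at 110 ± 17.3 CPM in rumen, 0.390 ± 0.447 CPM in liver and 0.163 ± 0.230 CPM in forebrain (SD, n = 2 each). AQP7, the aquaglyceroporin that neighbours AQP3 in the RefSeq gene order, had 5 counts, all in Rumen 2, so that the neighbouring gene was near its floor where AQP3 was high.

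CA2 was highest in liver and lowest in rumen. It stood at 6.50 and 7.88 CPM in Rumen 1 and 2, against 174 and 82.5 CPM in Liver 1 and 2 and 22.1 and 33.7 CPM in Forebrain 1 and 2. The tissues did not overlap, and all 3 steps of the order passed the test. The mean was 7.19 ± 0.974 CPM in rumen, 128 ± 64.6 CPM in liver and 27.9 ± 8.19 CPM in forebrain (SD, n = 2 each). CA2 was 17.8-fold lower in rumen than in liver (log2 fold change -4.15 ± 0.47 (SE), adjusted p = 0.000710 in edgeR). It was 3.88-fold lower in rumen than in forebrain (log2 fold change -1.96 ± 0.45, adjusted p = 0.0138 in edgeR). It was 4.58-fold higher in liver than in forebrain (log2 fold change 2.20 ± 0.41, adjusted p = 0.00406 in edgeR). The difference between rumen and forebrain did not pass without Rumen 1 (adjusted p = 0.0996), Rumen 2 (0.0786) or Forebrain 2 (0.103), while the other differences of CA2 passed in every alternative.

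In liver the level of CA2 differed between the libraries, with Liver 2 at 0.475 times Liver 1. Among 8207 well-counted liver genes, 24.7% lay further from the median ratio of these libraries. The summed level of 14 erythroid markers was also lower in Liver 2, although not every one of them was, with KLF1 at 724 and 974 CPM in Liver 1 and 2. It was 546 and 457 CPM in Rumen 1 and 2, 150675 and 58778 CPM in Liver 1 and 2, and 462 and 498 CPM in Forebrain 1 and 2. The globin HBG made up most of the liver sums, at 109165 and 37468 CPM in Liver 1 and 2. All 14 erythroid markers were higher in liver than in rumen and higher in liver than in forebrain, and none passed between rumen and forebrain. Over all tested genes, 21.8% were lower in rumen than in liver and 30.5% higher in liver than in forebrain. Between rumen and forebrain 41.8% passed. In Rumen 1 and 2 each, 7 of the 14 had no counts, while HBG still reached 458 and 385 CPM there. The fetal liver is a blood-forming organ, and red cells are rich in CA2, but the part of erythroid cells in the liver level of CA2 was not tested. The 9 macrophage markers also summed highest in liver, at 1022 and 438 CPM in Liver 1 and 2. Their sums were 37.9 and 39.0 CPM in Rumen 1 and 2 and 69.7 and 105 CPM in Forebrain 1 and 2, and their part was not tested. In forebrain, where CA2 lay between the other tissues, the 12 oligodendrocyte-lineage markers summed to 295 and 303 CPM in Rumen 1 and 2, 208 and 138 CPM in Liver 1 and 2, and 484 and 635 CPM in Forebrain 1 and 2. Of 11 tested, 1 was higher and 5 were lower in rumen than in forebrain, beside shares of 20.3% and 21.5% over all tested genes. The summed level of these markers was higher in Forebrain 2, as CA2 was, and their part in its level was not tested either. Nearest to CA2 across the 6 libraries were SORD (distance 0.59), NCKAP1L (0.60), RETN (0.66), ABCG1 (0.71) and STRADB (0.73). STRADB, a partner of the kinase LKB1, stood at 20.9 ± 4.88 CPM in rumen, 249 ± 68.5 CPM in liver and 58.9 ± 0.499 CPM in forebrain (SD, n = 2 each).

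CA3 was highest in forebrain. It stood at 8.57 and 18.7 CPM in Rumen 1 and 2, against 6.77 and 5.91 CPM in Liver 1 and 2 and 134 and 263 CPM in Forebrain 1 and 2. Both forebrain libraries lay above all others, and every rumen value lay above every liver value. The mean was 13.6 ± 7.13 CPM in rumen, 6.34 ± 0.612 CPM in liver and 198 ± 91.0 CPM in forebrain (SD, n = 2 each). CA3 was 14.6-fold lower in rumen than in forebrain (log2 fold change -3.87 ± 0.48 (SE), adjusted p = 0.00116 in edgeR) and 31.3-fold lower in liver than in forebrain (log2 fold change -4.97 ± 0.52, adjusted p = 0.000302 in edgeR). Both differences passed in every alternative. Rumen and liver did not differ beyond their spread, with a log2 fold change of rumen over liver of 1.10 ± 0.50 (adjusted p = 0.121 in edgeR), and in no alternative did this difference pass.

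CA3 also differed between libraries of the same tissue. Rumen 2 had 2.18 times the level of Rumen 1, and 0.44% of 7734 well-counted rumen genes lay further from the median ratio of these libraries in either direction. Forebrain 2 had 1.96 times the level of Forebrain 1, and 1.15% of 7638 forebrain genes lay further from the median ratio there. In liver the ratio of Liver 2 to Liver 1 was 0.872. CA3 is known from skeletal muscle, so the 21 muscle markers were read beside it. They summed to 69.25 and 68.0 CPM in Rumen 1 and 2, 19.9 and 28.3 CPM in Liver 1 and 2, and 69.6 and 90.9 CPM in Forebrain 1 and 2. Of 10 tested muscle markers 3 were higher and 4 lower in rumen than in forebrain, beside shares of 20.3% and 21.5% over all tested genes. The summed muscle level was higher in Forebrain 2, as CA3 was, but not in Rumen 2, where CA3 was also higher. The muscle-lineage factor MYOG had no counts in any library. The 8 adipocyte markers summed to 40.4 and 51.5 CPM in Rumen 1 and 2, 125 and 115 CPM in Liver 1 and 2, and 34.5 and 32.1 CPM in Forebrain 1 and 2. Of 6 tested, 2 were higher and 1 was lower in rumen than in forebrain, beside the same shares of 20.3% and 21.5% over all tested genes. FABP4 and LEP had no counts in any library, while the lipid-droplet protein PLIN1 averaged 5.80 ± 1.28 CPM in rumen, 2.58 ± 0.804 CPM in liver and 21.6 ± 3.17 CPM in forebrain (SD, n = 2 each), the tissue order of CA3. No other adipocyte marker had that order. CIDEC, CIDEA, LPL and LIPE were highest in liver, with means of 10.4, 17.2, 43.6 and 39.85 CPM there. PPARG was highest in rumen, at a mean of 21.4 CPM against 0.379 CPM in forebrain. The 11 radial glia and astrocyte markers had a summed level of 356 and 312 CPM in Rumen 1 and 2, 146 and 486 CPM in Liver 1 and 2, and 2025 and 2852 CPM in Forebrain 1 and 2. The sum was higher in Forebrain 2 and lower in Rumen 2, while CA3 was higher in both. Of 11 tested, 1 was higher and 8 were lower in rumen than in forebrain, beside the same shares of 20.3% and 21.5%. The part of muscle, adipocyte and glial cells in the level of CA3 was not tested. Nearest to CA3 in pattern were NETO1 (distance 0.80), KCNF1 (0.80), CALB1 (0.92), PACSIN1 (0.93) and KCNAB1 (0.95). CALB1, the calcium buffer calbindin of neurons, stood at 0.855 ± 0.668 CPM in rumen, had no counts in liver and stood at 26.3 ± 10.9 CPM in forebrain (SD, n = 2 each).

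In the RefSeq gene order CA2, CA3 and CA1 follow each other directly, yet their tissue orders differed. CA2 was highest in liver and CA3 in forebrain. CA1 stood at 1.84 and 0.156 CPM in Rumen 1 and 2 and had no counts in liver or forebrain, so it was too low to be tested.

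CA4 had few counts in every tissue and was highest in forebrain. It had 2 counts and no count in Rumen 1 and 2 (0.153 and 0 CPM), 6 and 7 counts in Liver 1 and 2 (0.447 and 0.450 CPM), and 36 and 33 counts in Forebrain 1 and 2 (2.93 and 2.38 CPM). The tissues did not overlap, but the rumen values lay below the floor. Pooled over both libraries, forebrain over rumen was 34.1, with a 95% counting interval from 9.10 to 288, and CA4 was lower in rumen with an adjusted p of 0.00661 in edgeR. It was 5.80-fold lower in liver than in forebrain (log2 fold change -2.54 ± 0.71 (SE), adjusted p = 0.0158 in edgeR). Rumen and liver did not differ beyond their spread (liver over rumen 5.80, counting interval from 1.31 to 52.9, adjusted p = 0.225 in edgeR). The difference between rumen and forebrain did not pass without Rumen 2 (adjusted p = 0.0643) or Forebrain 1 (0.0587). That between liver and forebrain did not pass without Forebrain 1 (0.104) or Forebrain 2 (0.0750), nor in DESeq2 (0.0585) or in edgeR's older quasi-likelihood fit (0.0654).

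CA4 is known from the capillary lining of the brain in rodents. The 14 endothelial markers had summed levels of 572 and 498 CPM in Rumen 1 and 2, 1356 and 951 CPM in Liver 1 and 2, and 270 and 372 CPM in Forebrain 1 and 2. All 14 were tested, and 5 were higher and none was lower in rumen than in forebrain. Over all tested genes the shares were 20.3% and 21.5%. CLDN5, a tight-junction protein of brain capillaries, was at 65.5 and 54.0 CPM in Rumen 1 and 2, 91.9 and 29.8 CPM in Liver 1 and 2, and 91.4 and 133 CPM in Forebrain 1 and 2. Its difference between rumen and forebrain did not pass. The other markers of the list, FLT1 and TIE1 excepted, had a lower mean in forebrain than in rumen, such as KDR (36.8 against 83.3 CPM). The part of endothelium in the level of CA4 was not tested. Nearest to CA4 in pattern were ATP6V1C1 (distance 0.23), STAT4 (0.26), GPR19 (0.26), ZNF814 (0.35) and SLC25A4 (0.38). ATP6V1C1, a subunit of the vacuolar proton pump, stood at 26.3 ± 2.04 CPM in rumen, 46.2 ± 3.79 CPM in liver and 152 ± 9.21 CPM in forebrain (SD, n = 2 each). Such distances are small where the gene itself is close to the offset of 0.5 CPM.

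RHCG was not detected in rumen. It had no count in Rumen 1 or 2, no count and 3 counts in Liver 1 and 2 (0 and 0.193 CPM), and 34 and 30 counts in Forebrain 1 and 2 (2.76 and 2.17 CPM). Both forebrain libraries lay above all others, and rumen and liver overlapped at the floor. The floor of 3 counts corresponds to 0.230 CPM in Rumen 1 and 0.234 CPM in Rumen 2, and the exact Poisson 95% interval of a count of 0 reaches 0.282 and 0.288 CPM there, for counting error only. RHCG was at least 21.1-fold lower in rumen than in forebrain, counted against a floor of 3 counts over both rumen libraries, with an adjusted p of 0.00930 in edgeR. Forebrain over liver was 23.7 in pooled counts, with a 95% counting interval from 7.74 to 118, and RHCG was lower in liver with an adjusted p of 0.00972 in edgeR. Rumen against liver had an adjusted p of 0.434, and no fold is given because both were at or under the floor.

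The rumen difference of RHCG rested on low counts. It did not pass without Rumen 1 (adjusted p = 0.0524), Rumen 2 (0.0527), Forebrain 1 (0.0739) or Forebrain 2 (0.0586), and the liver difference did not pass without Forebrain 1 (0.0721) or Forebrain 2 (0.0547). The RefSeq gene table places a noncoding gene over RHCG, and as no source used here gives the strand setting of the counting, reads of the pair cannot be told apart. Nearest to RHCG in pattern were DNAH7 (distance 0.12), WSB2 (0.28), HID1 (0.28), CELSR3 (0.36) and GRAMD1B (0.37). DNAH7, a dynein of motile cilia, had no counts in rumen, 0.0642 ± 0.0908 CPM in liver and 2.39 ± 0.417 CPM in forebrain. CELSR3, an adhesion receptor of developing axons, stood at 7.95 ± 0.873 CPM in rumen, 7.69 ± 1.39 CPM in liver and 42.2 ± 8.91 CPM in forebrain (SD, n = 2 each).

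**Figure D2:**
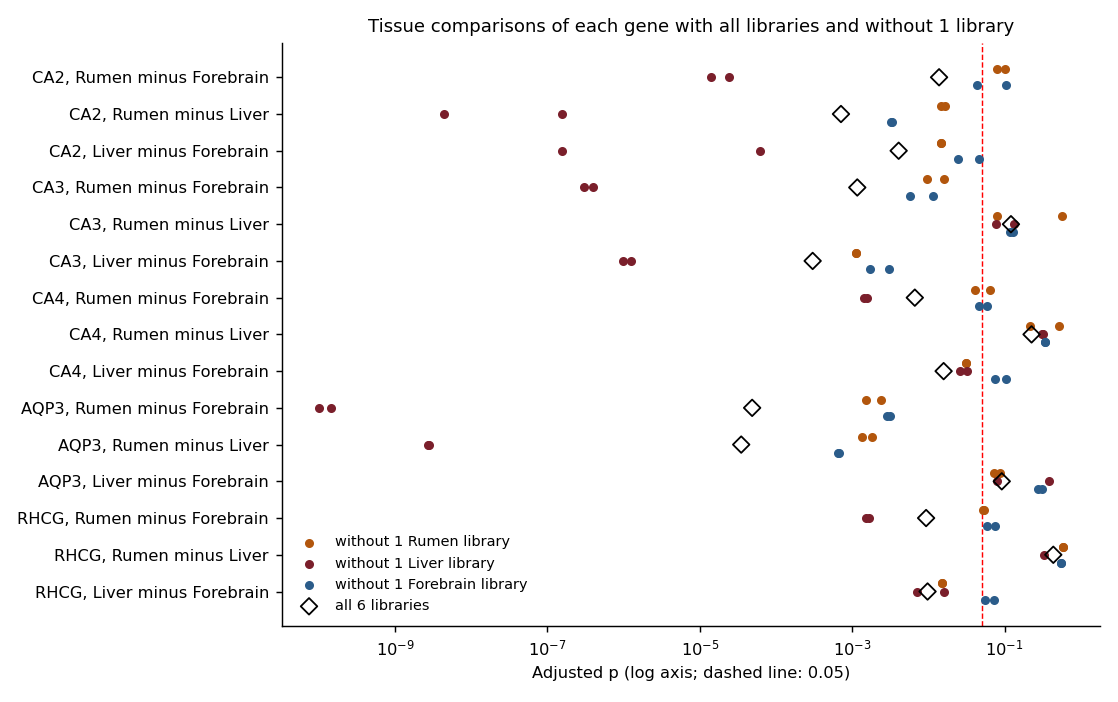
Adjusted p of each gene in each tissue comparison (horizontal axis, log scale, with the dashed line at 0.05) with all 6 libraries (open diamonds) and without 1 rumen, liver or forebrain library (coloured points). All points of CA2 in rumen against liver, of CA3 in both comparisons with forebrain and of AQP3 in both comparisons of rumen lie left of the line, while RHCG in rumen against forebrain crosses it without any 1 of the 4 rumen and forebrain libraries.

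The families of these genes held members of other tissue patterns. Of 9 other carbonic anhydrases in the table, 6 had enough reads to be tested. Of all tested genes, 20.3% were higher and 21.5% lower in rumen than in forebrain, and 21.2% and 21.8% than in liver. In liver against forebrain the shares were 30.5% and 27.3%. In rumen, 2 were higher than in forebrain (CA5B and CA8) and 1 was lower (CA10), with a median log2 fold change of -0.78 over the 6, against -0.01 over all tested genes. In rumen against liver, 4 were higher (CA5B, CA8, CA10 and CA11) and 2 were lower (CA5A and CA14), with a median of 3.43, against -0.06 over all tested genes. In liver against forebrain, 2 were higher (CA5A and CA14) and 4 were lower, with a median of -4.25, against 0.14 over all tested genes. The count of higher members in rumen against forebrain was 0 without either forebrain library and 1 without either rumen library, and that in rumen against liver was 2 without Rumen 2, Forebrain 1 or Forebrain 2. The count of lower members in rumen against liver was 1 without either rumen library, and in rumen against forebrain 2 without either liver library. The count of higher members in liver against forebrain was 1 without either forebrain library.

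CA8, a carbonic anhydrase-related protein without catalytic activity, was highest in rumen, at 33.5 and 30.7 CPM in Rumen 1 and 2, against 0.596 and 0 CPM in Liver 1 and 2 and 9.68 and 10.6 CPM in Forebrain 1 and 2. It was 112-fold higher in rumen than in liver (log2 fold change 6.81 ± 0.73 (SE), adjusted p = 0.000347 in edgeR). It was 3.16-fold higher than in forebrain (adjusted p = 0.0198), a call that was lost without any 1 rumen or forebrain library (adjusted p from 0.116 to 0.145). CA5B, a mitochondrial form, averaged 10.3 ± 0.622 CPM in rumen, 0.0744 ± 0.105 CPM in liver and 1.85 ± 0.264 CPM in forebrain, and was 5.57-fold higher in rumen than in forebrain (adjusted p = 0.00650 in edgeR), though not without Forebrain 1 (0.0666) or Forebrain 2 (0.0854). CA10, another related protein without catalytic activity, averaged 0.967 ± 0.177 CPM in rumen and 159 ± 31.4 CPM in forebrain, 163-fold lower in rumen (adjusted p = 8.70e-05). CA14, a membrane-spanning form, had no counts in rumen and averaged 18.5 ± 10.5 CPM in liver and 0.609 ± 0.0568 CPM in forebrain (SD, n = 2 each). It was at least 164-fold lower in rumen than in liver (adjusted p = 0.00208 in edgeR).

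Of 9 other aquaporins, 6 were tested. In rumen, 2 were higher than in forebrain (AQP1 and AQP5) and 1 was lower (AQP4), and 2 were higher than in liver (AQP4 and AQP5) and 2 were lower (AQP1 and AQP8). In liver against forebrain, 2 were higher (AQP1 and AQP8) and AQP4 was lower. The median log2 fold changes were -0.22, -0.49 and 0.27 in rumen against forebrain, rumen against liver and liver against forebrain. Over all tested genes, the shares higher and lower were 20.3% and 21.5%, 21.2% and 21.8%, and 30.5% and 27.3% in that order. AQP5, a water channel of the apical membrane of glands, was highest in rumen, as AQP3 was. It stood at 78.0 and 45.4 CPM in Rumen 1 and 2, had no counts in liver, and stood at 0.244 and 0.144 CPM in Forebrain 1 and 2. Rumen was clear of both other tissues, and Rumen 1 was the higher library, as for AQP3. AQP5 was 308-fold higher in rumen than in forebrain (log2 fold change 8.27 ± 0.61 (SE), adjusted p = 0.000118 in edgeR) and at least 598-fold higher than in liver (adjusted p = 8.26e-05).

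AQP4, the water channel of astrocytes, averaged 0.538 ± 0.430 CPM in rumen and 325 ± 14.7 CPM in forebrain, 592-fold lower in rumen (adjusted p = 8.70e-05 in edgeR), and AQP8 averaged 205 ± 88.5 CPM in liver, without counts in rumen (SD, n = 2 each). AQP1, the water channel of red cells and capillaries, averaged 17.3 ± 2.71 CPM in rumen and 35.4 ± 7.35 CPM in liver, and had 1 count in forebrain. Its difference between rumen and liver (adjusted p = 0.0480) was lost without Rumen 1 (0.156), Rumen 2 (0.275), Forebrain 1 (0.0917) or Forebrain 2 (0.0921). That between rumen and liver for AQP4 (adjusted p = 0.0409) did not pass without Rumen 1 (0.132), Liver 2 (0.0564), Forebrain 1 (0.100) or Forebrain 2 (0.0979). Without either liver library a second aquaporin was lower in rumen than in forebrain, 2 in all.

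RHCG was also set against 4 other Rh and urea transporter genes, of which 3 were tested. In rumen, 1 of the 3 was higher than in forebrain (RHBG), 2 were lower than in liver (RHAG and SLC14A1), and in liver all 3 were higher than in forebrain. The median log2 fold changes were 4.45, -4.00 and 7.03 in rumen against forebrain, rumen against liver and liver against forebrain. Among all tested genes, the shares higher and lower were 20.3% and 21.5%, 21.2% and 21.8%, and 30.5% and 27.3% in that order. RHBG, the basolateral ammonium transporter of kidney and liver, stood at 35.4 and 23.8 CPM in Rumen 1 and 2, 40.6 and 71.4 CPM in Liver 1 and 2, and 0 and 0.794 CPM in Forebrain 1 and 2. The tissue orders of RHBG and RHCG thus differed. RHBG was lowest in forebrain, where RHCG was highest, though on 34 and 30 counts in Forebrain 1 and 2. In rumen RHBG was detected and RHCG had no count. RHBG was 69.2-fold higher in rumen than in forebrain (log2 fold change 6.11 ± 0.79 (SE), adjusted p = 0.00101 in edgeR), and rumen and liver did not differ beyond their spread (adjusted p = 0.151). SLC14A1, the urea transporter known as UT-B, averaged 1.27 ± 0.256 CPM in rumen, 20.6 ± 8.34 CPM in liver and 0.185 ± 0.147 CPM in forebrain. It was 16.0-fold lower in rumen than in liver (adjusted p = 0.000639 in edgeR) and did not pass against forebrain (0.0793). RHAG, the Rh protein of red cells, stood at 527 and 172 CPM in Liver 1 and 2, in the order of the erythroid markers, of which it is 1. Without either liver library, 2 of the 3 were higher in rumen than in forebrain.

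**Figure D3:**
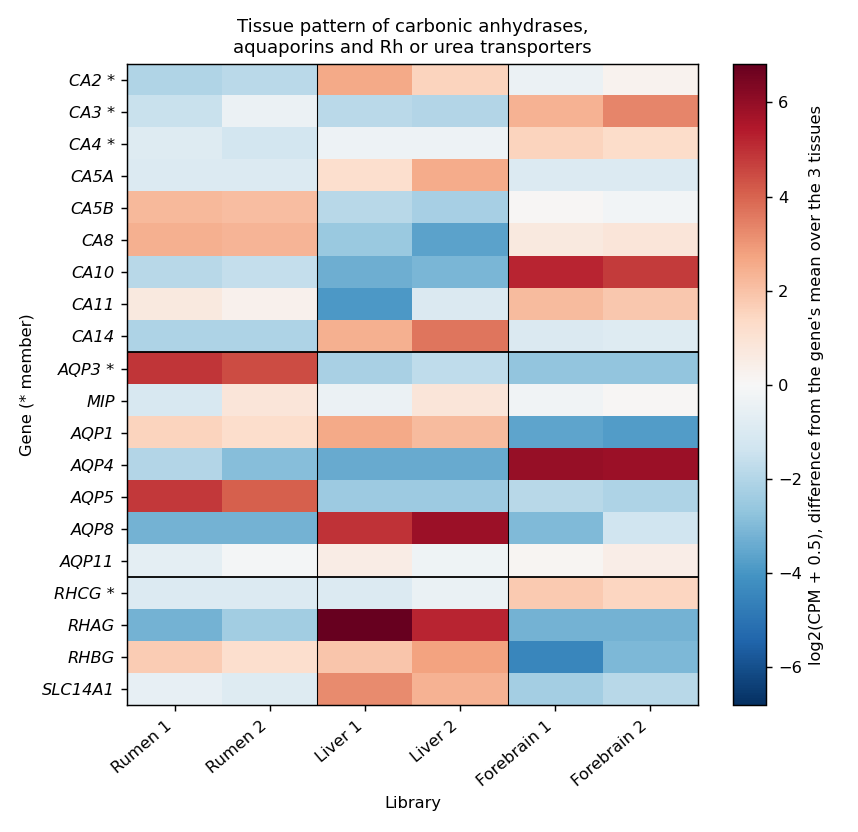
Difference of log2(CPM + 0.5) from the gene's mean over the 3 tissues (colour scale) for the 5 genes, marked with an asterisk, and the tested members of their families (vertical axis) in each library (horizontal axis). AQP3 and AQP5 are red in both rumen libraries, CA2 with CA5A and CA14 in both liver libraries, and CA3, CA10, AQP4 and RHCG in both forebrain libraries.

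Carbonic anhydrases hand bicarbonate and protons to transporters, and these were counted as lists. Of 10 tested bicarbonate transporters, 2 were higher in rumen than in forebrain (SLC4A2 and SLC4A11) and 2 lower (SLC4A10 and SLC26A11), and 2 were higher than in liver (SLC4A3 and SLC4A7) and 2 lower (SLC4A1 and SLC26A6). These counts lay near the shares over all tested genes. Those shares were 20.3% higher and 21.5% lower in rumen than in forebrain, and 21.2% and 21.8% than in liver. The median log2 fold changes were 0.23 against forebrain and 1.55 against liver. SLC4A2, the widespread chloride-bicarbonate exchanger AE2, averaged 86.0 ± 2.85 CPM in rumen, 91.3 ± 58.8 CPM in liver and 19.3 ± 0.0497 CPM in forebrain (SD, n = 2 each), 4.45-fold higher in rumen than in forebrain (adjusted p = 0.00961 in edgeR). That call was lost without any 1 rumen or forebrain library (adjusted p from 0.0522 to 0.0778), and 0 bicarbonate transporters were higher in rumen than in forebrain without any 1 of those libraries. The count lower than in forebrain was 1 without Rumen 1 or Forebrain 1 and 4 without either liver library. Both counts against liver were 1 without any 1 rumen or forebrain library, the higher one was 4 without Liver 2 and the lower one 4 without Liver 1. SLC4A1, the band 3 exchanger of red cells, stood at 2608 and 530 CPM in Liver 1 and 2 and had 1 count in rumen and 2 in forebrain.

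Of 11 tested sodium-proton exchangers, their regulators and lactate-proton carriers, 3 were higher in rumen than in forebrain (SLC9A3, SLC16A3 and BSG). In rumen against liver 1 was higher (SLC9A3) and 2 were lower (SLC9A9 and SLC9A3R1). Over all tested genes, 20.3% were higher in rumen than in forebrain, and 21.2% were higher and 21.8% lower than in liver. The median log2 fold changes were 0.39 against forebrain and -0.12 against liver. SLC9A3, the apical sodium-proton exchanger NHE3 of absorbing epithelia, stood at 7.35 and 15.2 CPM in Rumen 1 and 2, 0.0744 and 0.257 CPM in Liver 1 and 2, and 1.30 and 0.938 CPM in Forebrain 1 and 2. Like CA3 it was higher in Rumen 2 than in Rumen 1. SLC9A3 was 62.2-fold higher in rumen than in liver (adjusted p = 0.000686 in edgeR) and 10.1-fold higher than in forebrain (adjusted p = 0.00274). BSG, the chaperone of the lactate carriers, averaged 604 ± 5.43 CPM in rumen, 797 ± 25.7 CPM in liver and 250 ± 25.5 CPM in forebrain (SD, n = 2 each), 2.42-fold higher in rumen than in forebrain (adjusted p = 0.00302). SLC16A3, the lactate carrier MCT4, was 4.63-fold higher in rumen than in forebrain (adjusted p = 0.0455) and did not pass without any 1 rumen or forebrain library (adjusted p from 0.129 to 0.199). Without either liver library the count higher than in forebrain was 6. The count higher than in liver was 3 without Liver 1 and 2 without Liver 2, and that lower than in liver was 4 without Liver 1 and 1 without either rumen library.

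The vacuolar proton pump, or V-ATPase, secretes the protons that carbonic anhydrase makes in acid-secreting cells and acidifies organelles in all cells. Of its 22 tested subunits and accessory proteins, 4 were higher in rumen than in forebrain (ATP6V0A4, ATP6V0E1, ATP6V1B1 and ATP6V1C2) and 14 were lower, with a median log2 fold change of -1.48. Against liver, 5 were higher (ATP6V0A4, ATP6V1B1, ATP6V1C2, ATP6V1G2 and ATP6V1H) and 3 were lower (ATP6V0D2, ATP6V0E2 and ATP6V1C1), with a median of 0.33. In liver against forebrain, 2 were higher and 15 were lower, with a median of -1.70. Among all tested genes, the shares higher and lower were 20.3% and 21.5%, 21.2% and 21.8%, and 30.5% and 27.3% in these comparisons. The counts higher than in forebrain were 2 without any 1 rumen or forebrain library. Against liver the counts higher were 9 without Liver 1 and 3 without Rumen 2, and the counts lower were 1 without any 1 rumen or forebrain library, 5 without Liver 1 and 7 without Liver 2. In liver against forebrain the count higher was 1 without either forebrain library.

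The higher subunits in rumen, which were named after their values were seen, included isoforms known from the kidney. ATP6V1B1, the B1 isoform of the intercalated cells of human and mouse kidney, stood at 97.2 and 79.2 CPM in Rumen 1 and 2, 1.04 and 2.83 CPM in Liver 1 and 2, and had no counts in forebrain. Both rumen libraries stood clear of the rest. ATP6V1B1 was 44.4-fold higher in rumen than in liver (log2 fold change 5.47 ± 0.47 (SE), adjusted p = 0.000511 in edgeR) and at least 770-fold higher than in forebrain (adjusted p = 0.000301). ATP6V0A4, the a4 isoform of the same kidney cells, averaged 6.54 ± 1.68 CPM in rumen, 0.692 ± 0.706 CPM in liver and 0.704 ± 0.384 CPM in forebrain (SD, n = 2 each), 9.78-fold higher in rumen than in liver (adjusted p = 0.0106) and 9.36-fold higher than in forebrain (adjusted p = 0.0122). ATP6V0D2, the d2 isoform of kidney and osteoclasts, went the other way, at 0.156 ± 0.221 CPM in rumen, 7.65 ± 0.714 CPM in liver and 24.5 ± 3.72 CPM in forebrain. The 9 intercalated-cell markers, of which ATP6V1B1, ATP6V0A4, ATP6V1C2 and ATP6V0D2 are themselves subunits, summed to 136 and 128 CPM in Rumen 1 and 2, 10.3 and 12.1 CPM in Liver 1 and 2, and 25.2 and 31.1 CPM in Forebrain 1 and 2. ATP6V1B1 alone made up most of the rumen sums. Of 7 tested, 5 were higher and 1 was lower in rumen than in forebrain, and likewise than in liver. The higher ones included ATP6V1B1, ATP6V0A4 and ATP6V1C2 and the lower one was ATP6V0D2, so these counts largely repeat the subunits above. Over all tested genes, 20.3% were higher and 21.5% lower in rumen than in forebrain, and 21.2% and 21.8% than in liver. The factor DMRT2 averaged 26.5 ± 3.97 CPM in rumen, 0 CPM in liver and 0.117 ± 0.0640 CPM in forebrain, and HEPACAM2 4.91 ± 0.205 CPM in rumen, 0.517 ± 0.00516 CPM in liver and 0.718 ± 0.210 CPM in forebrain (SD, n = 2 each). The defining factor FOXI1 and the chloride channel subunit BSND had no counts in any library. The part of such cells in these levels was not tested.

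Most other subunits were highest in forebrain. ATP6V1A, the catalytic A subunit, averaged 36.5 ± 8.07 CPM in rumen, 48.4 ± 33.4 CPM in liver and 323 ± 29.7 CPM in forebrain, 8.87-fold lower in rumen than in forebrain (adjusted p = 0.00298 in edgeR). ATP6V1E1, a stalk subunit, averaged 137 ± 1.81 CPM in rumen, 177 ± 3.13 CPM in liver and 637 ± 52.1 CPM in forebrain (SD, n = 2 each), 4.64-fold lower in rumen than in forebrain (adjusted p = 0.000302). ATP6V0C and ATP6AP2 were 2.90-fold and 4.14-fold lower in rumen than in forebrain (adjusted p = 0.00371 and 0.000449), the first of them not without Rumen 1 (0.0556). ATP6V0D1 was 3.08-fold lower (adjusted p = 0.00465), though not without Rumen 1 (0.0545), Rumen 2 (0.0568) or Forebrain 2 (0.0521).

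**Figure D4:**
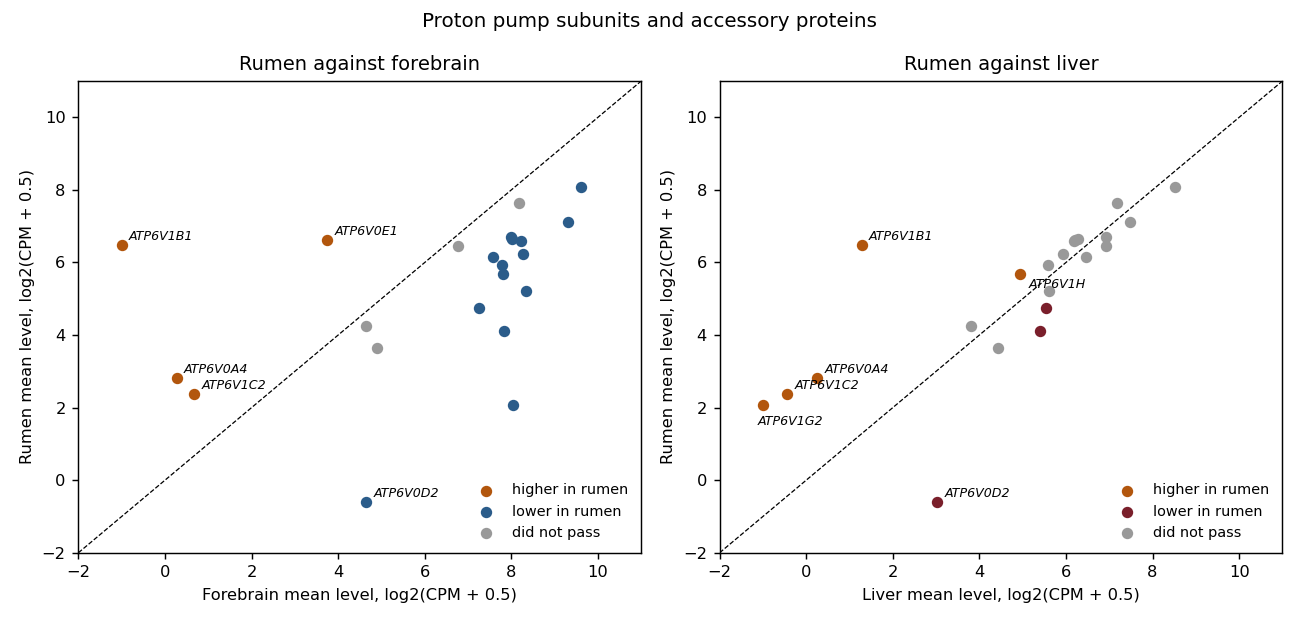
Mean level of the 22 tested V-ATPase subunits and accessory proteins in rumen (vertical axes) against forebrain (left) and liver (right) on a log2(CPM + 0.5) scale, with equal levels on the dashed line. Colours mark subunits higher in rumen, lower in rumen or not passing the test. ATP6V1B1 lies far above the line in both panels, at 88.2 CPM in rumen. At an adjusted p under 0.05 in edgeR, 14 were lower in rumen than in forebrain and 3 lower than in liver.

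The sodium pump and the channels of epithelia formed the last group of ion transporters. Of 15 tested members, 6 were higher in rumen than in forebrain (ATP1B3, FXYD1, FXYD3, SCNN1A, SCNN1G and ANO1) and 3 were lower than in liver (KCNN4, CLCN2 and ANO1). Over all tested genes, 20.3% were higher in rumen than in forebrain and 21.8% were lower in rumen than in liver. The median log2 fold changes were 0.70 against forebrain and 0.07 against liver. ATP1B3, a β subunit, averaged 485 ± 0.881 CPM in rumen, 75.5 ± 18.3 CPM in liver and 89.1 ± 20.1 CPM in forebrain (SD, n = 2 each), 6.42-fold higher in rumen than in liver (adjusted p = 0.000475 in edgeR) and 5.44-fold higher than in forebrain (adjusted p = 0.000703). SCNN1A, the α subunit of the epithelial sodium channel, was 7.43-fold higher in rumen than in liver (adjusted p = 0.00590) and 6.72-fold higher than in forebrain (adjusted p = 0.00751), at 6.45 ± 0.144 CPM in rumen. The count higher than in forebrain was 3 without either forebrain library. The count lower than in liver was 1 without either rumen library.

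Enzymes that make or use ammonia complete the surroundings of RHCG. Of 10 tested, 8 were lower in rumen than in liver and none was higher, with a median log2 fold change of -3.37, and 7 were higher in liver than in forebrain. In rumen against forebrain ARG1 was higher and GLUD1 was lower, with a median of -0.18. Of all tested genes, 21.8% were lower in rumen than in liver and 30.5% higher in liver than in forebrain. Against forebrain, 20.3% were higher and 21.5% lower in rumen. CPS1, the entry enzyme of the urea cycle, averaged 0.230 ± 0.325 CPM in rumen and 1022 ± 679 CPM in liver, with 3 counts in forebrain. It was lower in rumen than in liver with an adjusted p of 4.00e-05 in edgeR. ARG1, the last enzyme of the urea cycle, stood at 19.5 and 16.3 CPM in Rumen 1 and 2, 120 and 177 CPM in Liver 1 and 2, and 2.20 and 2.67 CPM in Forebrain 1 and 2, 7.31-fold higher in rumen than in forebrain (adjusted p = 0.00116). GLUD1, glutamate dehydrogenase, was 10.6-fold lower in rumen than in liver (adjusted p = 0.000272) and 2.67-fold lower than in forebrain (adjusted p = 0.00720), the second not without Rumen 1 (0.0832), Rumen 2 (0.0718) or Forebrain 1 (0.0613). GLUL, glutamine synthetase, was not called in any comparison, at 223 ± 6.15 CPM in rumen, 234 ± 113 CPM in liver and 310 ± 57.0 CPM in forebrain (SD, n = 2 each). Without either liver library, 2 of these enzymes were higher and 4 lower in rumen than in forebrain, and without Liver 2, 1 was higher in rumen than in liver.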

How the data were processed

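The authors deposited raw, unscaled counts in 1 column per library, and all 6 columns matched a label by name (0 unmatched). The submitters' processing notes name HISAT2 2.0.5 (an aligner), featureCounts 1.5.0-p3 (a read counter) and edgeR 3.18.1. Genome build, annotation and strandedness of the counting were not given in the sources used here. RefSeq's gene table (assembly ARS-UCD2.0) served only for names and gene order, and listed 13929 of the symbols and all 5 members.

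Tests were run in R 4.3.3 with edgeR 4.0.16. The filter filterByExpr (minimum count 10) kept 11478 of 14179 symbols, and 1359 had no counts. A quasi-likelihood model with TMM scaling and a mean for each tissue (3 residual degrees of freedom, no replicate block) gave the comparisons, with p-values adjusted by the Benjamini-Hochberg method over the 11478 genes and a threshold of 0.05. SEs are the log2 fold change over the root of F. Printed folds are fitted values. Where a tissue had 1 to 3 counts, a ratio of pooled counts with an exact interval stands in for the members and no fold is given for other genes, and where it had none, a bound against 3 counts over both libraries. CPM uses the total times the TMM factor. Intervals (95%) and floors cover counting error only. Well-counted genes are those with a mean count of at least 100 in the tissue's libraries, or at least 1000 for the SD of the log2 ratio. Alternatives were DESeq2 1.42.0, other size factors, no filter, fits on the compared tissues only, a replicate block, leaving out each library, and edgeR's older fit. The last, and all alternatives of the gene lists, were added after seeing the data. Named list genes were at most 5 per list with the highest mean in any tissue among those called. Others were named where a count was 5 or fewer, or singled out after their values were seen. A few list members are not reported here. The 5 nearest genes were listed for each member. Members and lists were chosen with earlier results of these data known. Scripts were tested on simulated data and run in Python 3.11.15 for tables and figures.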

Additional observations from a re-analysis of the deposited data

How the results depend on the processing

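Of 15 comparisons of the 5 genes, 11 passed the threshold, 6 of them under each of the 12 alternatives, and 0 changed direction. CA4 in liver against forebrain did not pass in DESeq2 (adjusted p = 0.0585) or in the older edgeR fit (0.0654), and AQP3 in liver against forebrain passed in both (0.0475 and 0.0238). Without 1 library, the adjusted p ran from 1.40e-05 to 0.103 for CA2 in rumen against forebrain, from 0.00144 to 0.0643 for CA4 and from 0.00152 to 0.0739 for RHCG in the same comparison, and in liver against forebrain from 0.0260 to 0.104 for CA4 and from 0.00709 to 0.0721 for RHCG. The cause was not tested. Among all tested genes, 2329 were higher and 2473 lower in rumen than in forebrain, against 3681 and 3734 in a fit on these tissues alone, and without 1 library the counts ran from 1001 to 3621 and from 1119 to 3843. In rumen against liver they ran from 1333 to 3481 for higher genes and from 1105 to 3792 for lower genes, and in liver against forebrain from 1954 to 4398 and from 2036 to 3993. The replicate block changed no call of the 5 genes (CA2 in rumen against forebrain, adjusted p = 0.0194), and it lost those of AQP1, AQP4 and CA11 in rumen against liver (0.0539, 0.0591 and 0.0530). Differences between the libraries of a tissue had correlations across genes of 0.00844 between rumen and liver, -0.0757 between rumen and forebrain and 0.0794 between liver and forebrain. Each rests on a single difference per tissue, so it cannot show whether same-numbered libraries share a fetus. No label ties a library to its fetus, so the numbers were not taken as pairs. The fit on the compared tissues alone gave no value for CA4 and RHCG in rumen against liver or AQP3 in liver against forebrain, where the filter removed them, and RHCG had no counts in rumen and liver without Liver 2. CA4 and RHCG had at most 36 counts in any library.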
